A study of Mus musculus with 60 samples.

Results

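Gene expression was compared in the lungs of 5 male Balb/c mice killed 48 h after a 4 h inhalation of a superparamagnetic iron oxide (SPIO) nanoparticle aerosol and of 5 sham controls killed at the same time. The 10 arrays were chosen by their labels, which name the time and the arm, out of 60 arrays in the whole series. The exposed mice had breathed the aerosol with a labelled total mass of 365 ug, and the sham controls had breathed the humidified, filtered helium-oxygen atmosphere without particles. Both arms shared the strain, the sex and the killing with sodium pentobarbital, and no age is given in the labels. Each arm had an exposure unit of its own, with warmer and more humid air at the nose ports of the exposed mice per the study's methods, so that unit and particles cannot be told apart. The remaining arrays, of the same arms at 0, 6, 24, 96 and 168 h, entered the model for its estimate of the spread and the comparisons between times. Each array held total RNA of the lung of 1 mouse, so that a lower level of a transcript in fewer cells and a lower level per cell cannot be told apart.

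Magnetite particles that reach the alveoli are taken up mostly by alveolar macrophages, which store the iron and can call neutrophils into the airspace through chemokines. Injured lung is repaired by division of epithelial, endothelial and resident immune cells. Heat shock proteins are chaperones that fold other proteins; their genes are switched on by heat shock factor when unfolded protein builds up in the cytosol, and the unfolded protein response does the same for the endoplasmic reticulum.

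Values are log2 levels made by the robust multi-array average (RMA), so a difference of 1 is a doubling, and 1 probe set stands for each gene. A gene was called where limma's moderated test gave a Benjamini-Hochberg adjusted p under 0.05 over all 18193 genes. Exposed and sham mice differed in 2283 of these genes (12.5% of those tested). Of them, 1940 were higher (10.7%) and 343 lower (1.89%) in the exposed mice. The changes were small, with a median size of 0.36 on the log2 scale among the called genes, and 253 of them reached 1.5-fold and 25 reached 2-fold. The values of the 5 exposed and the 5 sham mice did not overlap in 1397 genes (7.68%), of which 1090 (5.99% of those tested) were also called.

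The excess of higher genes depended on the scale of the arrays. After each array was centred on its median over genes, 537 genes were higher and 1068 lower, and the median difference over all genes moved by -0.13; after a repeated quantile normalization 61.1% of 1444 called genes were higher, against 1940 of the 2283 here. Array medians at 48 h ran from 5.55 to 5.62, interquartile ranges from 3.70 to 4.15 and correlations between arrays from 0.984 to 0.996. Lung markers were high in all 10 mice: Sftpc, the surfactant protein of alveolar type 2 cells, lay between 14.91 and 14.98, Scgb1a1, the secretoglobin of club cells, between 15.02 and 15.06, and Ager, of alveolar type 1 cells, between 14.48 and 14.72. Other tissue was in some arrays. Alb, the albumin of hepatocytes, was between 5.39 and 5.99 in the exposed mice, but at 5.71, 9.79, 5.87, 7.86 and 10.26 in the sham controls. The mean of 15 hepatocyte genes ran from 4.58 to 4.77 in exposed mice and from 4.61 to 6.77 in sham controls, although none of the 15 was called. The mean of 29 cardiac muscle genes ran from 5.70 to 8.69 in the exposed mice and from 6.09 to 9.11 in the sham controls, lowest in exposed mouse 4 and sham mouse 3. Without sham arrays 2 and 5, which had the highest Alb, 1338 genes were called, 1115 higher and 223 lower.

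Chaperone genes were lower 48 h after SPIO nanoparticle exposure. Of 25 measured heat shock chaperone genes, 17 fell, none rose and 8 did not pass the test, with a median log2 fold change of -0.66 against 0.043 over all genes. Over all genes 1.89% were called lower. Without sham arrays 2 and 5 there were 15, and 14 to 18 when 1 mouse at a time was left out. The median was -0.79 with centred arrays, where 18 fell.

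Hspa1b, the stress-inducible chaperone of the cytosol, had the largest fall of the called genes whose groups were apart. Its log2 levels were 8.75, 8.52, 9.70, 8.13 and 9.59 in the exposed mice and 13.13, 12.14, 12.07, 12.47 and 11.37 in the sham controls. All exposed mice were below all sham controls, with a difference in means of -3.30 (standard error 0.53, 95% confidence interval -4.36 to -2.23, limma adjusted p = 4.3e-05). That is a level 9.83-fold higher in the sham controls. Its other probe sets gave -3.20 and -3.12. Hspa1a, its neighbour on chromosome 17, was at 7.37, 7.40, 8.12, 7.07 and 7.82 in the exposed mice and 10.46, 10.09, 8.61, 10.96 and 9.60 in the sham controls, a difference of -2.39 (standard error 0.52, adjusted p = 0.0017). The transcripts of these neighbours are near-identical, and a probe set for 1 of them may also read the other.

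The 250 bases before the start sites of 4 of these genes are shown because heat shock factor acts through paired units of their promoters. They are taken from RefSeq on build GRCm38.p6 and written 5′ to 3′ in the direction of the gene, with Hspa1b at chr17:34959239-34959488 on the minus strand, Hspa1a at chr17:34972157-34972406 on the minus strand, Hspe1 at chr1:55087898-55088147 on the plus strand and Hsph1 at chr5:149636316-149636565 on the minus strand. Capitals mark matches to the paired unit, GAANNTTC or TTCNNGAA, each of which reads the same on both strands; matches may overlap.
Hspa1b: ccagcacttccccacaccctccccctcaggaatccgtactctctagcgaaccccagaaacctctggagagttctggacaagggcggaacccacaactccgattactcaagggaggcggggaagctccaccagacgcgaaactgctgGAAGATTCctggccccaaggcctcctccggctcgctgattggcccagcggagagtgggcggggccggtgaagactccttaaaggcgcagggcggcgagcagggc
Hspa1a: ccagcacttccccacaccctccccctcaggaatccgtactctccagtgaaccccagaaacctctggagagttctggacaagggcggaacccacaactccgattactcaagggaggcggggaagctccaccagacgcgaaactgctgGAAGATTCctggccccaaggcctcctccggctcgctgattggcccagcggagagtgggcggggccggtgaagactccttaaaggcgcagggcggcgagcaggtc
Hspe1: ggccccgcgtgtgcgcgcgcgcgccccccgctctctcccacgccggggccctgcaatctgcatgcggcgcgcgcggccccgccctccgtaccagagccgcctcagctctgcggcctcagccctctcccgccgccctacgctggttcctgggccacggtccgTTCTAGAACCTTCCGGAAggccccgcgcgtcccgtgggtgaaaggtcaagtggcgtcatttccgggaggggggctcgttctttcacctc
Hsph1: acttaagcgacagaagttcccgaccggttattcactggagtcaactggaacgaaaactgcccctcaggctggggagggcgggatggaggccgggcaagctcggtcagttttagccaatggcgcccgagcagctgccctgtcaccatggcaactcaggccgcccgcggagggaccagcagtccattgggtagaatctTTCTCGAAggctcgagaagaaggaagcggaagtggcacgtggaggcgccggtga
The Hspa1b and Hspa1a sequences were identical at 247 of the 250 bases, and each held its match 97 bases before the start site. Hspe1 held 3 overlapping matches. A paired unit was in 10 of the 21 heat shock chaperone genes with a promoter in the table (47.6%), in 7 of the 13 of them that fell (53.8%), and in 12.8% of all 32851 promoters of this length. A match is a description of the letters and not a measured site.

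The chaperonin of the mitochondrion fell in both its parts. Hspe1, its lid, was at 11.38, 10.53, 11.22, 10.57 and 10.48 in the exposed mice and 11.89, 12.07, 11.71, 12.21 and 11.86 in the sham controls (difference -1.11, standard error 0.23, adjusted p = 0.0009). Its groups did not overlap. Hspd1, the barrel, had a difference of -0.71 (adjusted p = 0.0051); its groups overlapped, since exposed mouse 1 at 11.92 was above sham mouse 3 at 11.81.

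Members of the Hsp90 and Hsp70 machines fell in part. Hsp90aa1, the inducible Hsp90, was at 12.88, 12.20, 13.04, 12.25 and 12.34 in the exposed mice and 13.58, 13.89, 13.22, 14.01 and 13.53 in the sham controls (difference -1.10, standard error 0.21, adjusted p = 0.00037). Dnaja1, a J-domain partner of Hsp70, differed by -1.08 (standard error 0.21, adjusted p = 0.00056). In both genes the groups were apart, with exposed mouse 3 the highest of the exposed mice and sham mouse 3 the lowest of the sham controls. Hsph1, an exchange factor of Hsp70, differed by -1.44 (standard error 0.39, adjusted p = 0.01), but its groups overlapped, with 9.75 to 11.61 in exposed mice and 11.24 to 12.91 in sham controls. It lost the call without exposed mouse 4 and when the 48 h arrays were fitted alone. Hspa8, the constitutive Hsp70, and St13, its co-factor, were lower by smaller steps of -0.62 and -0.61, with groups apart (adjusted p = 0.00053 and 0.00027). Stip1, which bridges the Hsp70 and Hsp90 machines, differed by -0.90, and Serpinh1, the collagen chaperone, by -0.87. Cryab, a small heat shock protein, differed by -0.51 (adjusted p = 0.0055). The 8 members that did not pass were Hspa4l (-0.53), Hspb1 (-0.46), Dnajb4 (-0.34), Hspb8 (-0.33), Bag3 (-0.15), Hspa4 (-0.03), Cdc37 (0.12) and Hsf2 (0.19). The other probe sets of Hspa4 gave -0.5, -0.44 and 0.01, at mean levels of 10.2, 9.54 and 5.59 over all arrays.

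**Figure D1:**
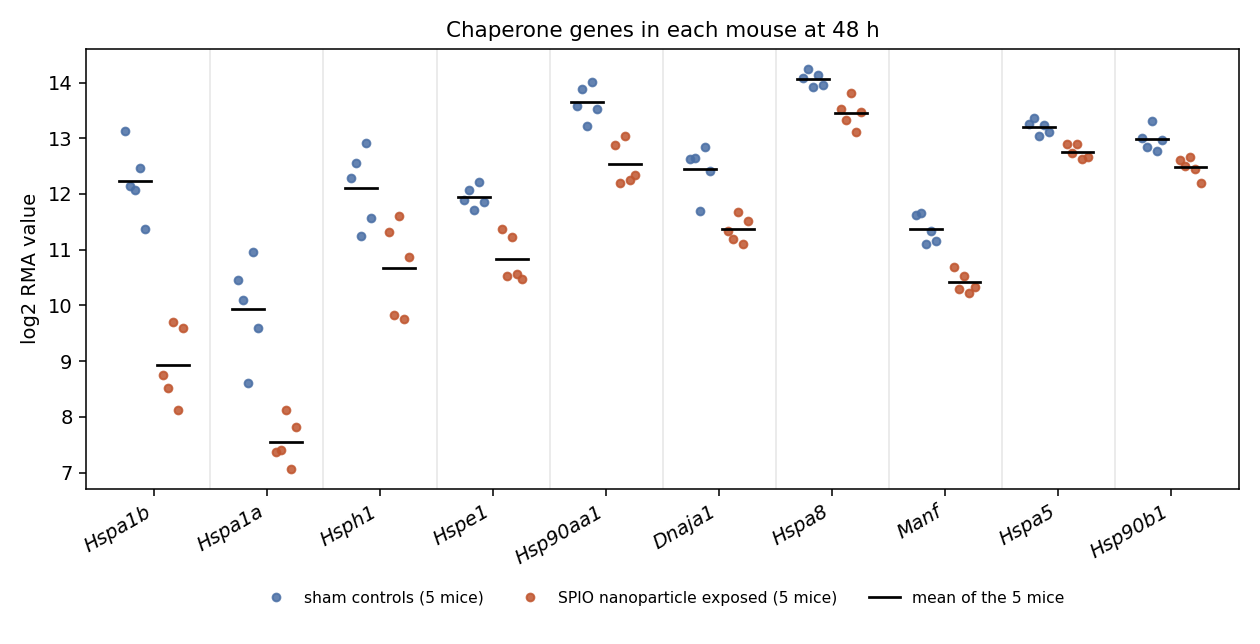
Log2 RMA value (vertical axis) of 10 chaperone genes in each of 5 sham controls and 5 SPIO nanoparticle exposed mice at 48 h; points are mice and lines are means. The mean of the exposed mice lies below that of the sham controls for each gene, and the groups overlap for Hsph1 (9.75 to 11.61 against 11.24 to 12.91) and not for the other genes plotted.

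Genes of the unfolded protein response were also lower, by smaller amounts. Of 26 measured, 10 fell, 1 rose (Atf6, a sensor of the response, 0.24, adjusted p = 0.025) and 15 did not pass, with a median of -0.25. Over all genes 1.89% were called lower. The rise of Atf6 was lost after centring, where 17 of the 26 fell. The groups of Atf6 overlapped, and its other probe sets, at mean levels of 7.02 and 7.84, each gave -0.01. The count of lower genes on the list was 6 without sham arrays 2 and 5. Manf, a secreted protein of the endoplasmic reticulum that is induced by its stress, was at 10.69, 10.30, 10.53, 10.23 and 10.33 in the exposed mice and 11.63, 11.65, 11.10, 11.34 and 11.16 in the sham controls. Its difference of -0.96 (standard error 0.14, adjusted p = 1e-05) left the groups apart. Hspa5, the main Hsp70 of the endoplasmic reticulum, differed by -0.44 (standard error 0.10, adjusted p = 0.003), and Hsp90b1, its Hsp90, by -0.50 (standard error 0.13, adjusted p = 0.009). Dnajb9, a J-domain partner of Hspa5, differed by -0.46, and Xbp1, a transcription factor of the response, by -0.28 (adjusted p = 0.00045 and 0.0075). Their groups were apart in each case. Ddit3, a transcription factor of prolonged stress, differed by -0.39 (adjusted p = 0.026), and Sdf2l1 by -0.57 (adjusted p = 0.016). Edem1, which sends misfolded glycoproteins to degradation, differed by -0.30 (adjusted p = 0.00099) in the probe set used and by 0.22 in its other probe set.

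Promoters of 3 of these genes are shown for the same reason, with capitals at matches to the endoplasmic reticulum stress element, which is CCAAT followed by CCACG after a spacer of any 9 bases, searched on both strands. They are Hspa5 at chr2:34771840-34772089 on the plus strand, Hsp90b1 at chr10:86705445-86705694 on the minus strand and Creld2 at chr15:88819396-88819645 on the plus strand, from the same RefSeq table and build.
Hspa5: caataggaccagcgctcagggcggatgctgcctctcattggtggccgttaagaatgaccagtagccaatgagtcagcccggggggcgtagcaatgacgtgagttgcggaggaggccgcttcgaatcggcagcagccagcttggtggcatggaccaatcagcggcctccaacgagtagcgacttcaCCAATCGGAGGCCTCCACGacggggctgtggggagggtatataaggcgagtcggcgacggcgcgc
Hsp90b1: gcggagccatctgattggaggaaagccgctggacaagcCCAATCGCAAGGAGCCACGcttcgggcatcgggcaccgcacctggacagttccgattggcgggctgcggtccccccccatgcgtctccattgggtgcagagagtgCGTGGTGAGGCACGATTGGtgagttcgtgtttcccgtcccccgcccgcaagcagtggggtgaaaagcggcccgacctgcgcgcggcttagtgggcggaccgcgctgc
Creld2: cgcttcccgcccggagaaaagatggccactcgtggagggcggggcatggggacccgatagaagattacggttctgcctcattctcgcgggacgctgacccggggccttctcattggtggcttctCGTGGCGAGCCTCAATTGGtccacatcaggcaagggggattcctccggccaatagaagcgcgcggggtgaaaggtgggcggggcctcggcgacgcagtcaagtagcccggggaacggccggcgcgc
The element was in 8 of 23 genes of the list with a promoter (34.8%) and in 3 of the 9 of them called (33.3%). It was in 0.131% of all tested genes with a promoter and in 37 of all 32851 promoters (0.113%). Hsp90b1 held 2 matches, 1 on each strand. Creld2, a chaperone of the endoplasmic reticulum, was at 10.08, 9.56, 9.83, 9.46 and 9.70 in the exposed mice and 10.22, 10.64, 9.85, 10.56 and 10.13 in the sham controls (difference -0.55, adjusted p = 0.042). Its groups overlapped, and the call was lost in each repeat that left out an exposed mouse from 2 to 5.

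Genes of cell division were higher in the exposed mice. Of 39 measured genes of mitosis and chromosome segregation, 22 rose, 1 fell and 16 did not pass, with a median log2 fold change of 0.55 against 0.043 over all genes. Of 33 DNA replication genes, 13 rose, none fell and 20 did not pass, with a median of 0.30. Over all genes 10.7% were called higher. After centring, 9 mitosis and 10 replication genes rose, with medians of 0.42 and 0.17. Without sham arrays 2 and 5 the counts were 11 and 10.

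Mki67, the nuclear antigen used to stain dividing cells, was at 7.11, 6.86, 7.55, 7.0 and 7.35 in the exposed mice and 5.84, 6.28, 5.83, 6.45 and 6.05 in the sham controls. Its difference was 1.08, or 2.11-fold (standard error 0.27, adjusted p = 0.0064), with no overlap between the groups. Cep55, which acts in the last cut between daughter cells, had the largest difference of the division genes at 1.46 (standard error 0.29, adjusted p = 0.00052). Its levels were 6.21, 6.21, 6.49, 5.80 and 6.35 in the exposed mice against 4.89, 4.91, 4.56, 4.55 and 4.82 in the sham controls. Every exposed mouse was above every sham control. Cdk1, the kinase that drives entry into mitosis, differed by 0.86 (adjusted p = 0.011), and its cyclins Ccnb2 and Ccna2 by 0.83 and 0.84 (adjusted p = 0.014 and 0.021). Top2a, the topoisomerase of condensing chromosomes, differed by 0.94 (standard error 0.23, adjusted p = 0.005). All 4 had groups apart.

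The promoters of 3 of these genes are given, since many genes of late cell cycle share a short element there. Mki67 at chr7:135716380-135716629 on the minus strand, Cdk1 at chr10:69352913-69353162 on the minus strand and Top2a at chr11:99024190-99024439 on the minus strand were read from the same table, and capitals mark TTTGAA on either strand, the core of the cell cycle genes homology region.
Mki67: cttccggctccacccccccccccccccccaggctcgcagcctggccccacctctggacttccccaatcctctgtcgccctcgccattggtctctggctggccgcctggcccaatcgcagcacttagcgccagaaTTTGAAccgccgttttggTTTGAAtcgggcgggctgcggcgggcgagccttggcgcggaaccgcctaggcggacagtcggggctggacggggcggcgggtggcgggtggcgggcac
Cdk1: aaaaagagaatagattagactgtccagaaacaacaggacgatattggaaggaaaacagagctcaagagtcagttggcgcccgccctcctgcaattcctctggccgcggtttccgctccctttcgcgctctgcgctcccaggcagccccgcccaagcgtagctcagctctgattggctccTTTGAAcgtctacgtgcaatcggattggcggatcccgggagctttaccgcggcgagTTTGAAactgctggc
Top2a: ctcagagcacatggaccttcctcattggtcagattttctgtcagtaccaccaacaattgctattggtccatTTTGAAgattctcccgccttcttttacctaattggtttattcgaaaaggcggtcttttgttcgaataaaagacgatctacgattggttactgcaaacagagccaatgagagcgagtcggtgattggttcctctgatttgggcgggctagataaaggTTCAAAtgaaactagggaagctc
Each of the 3 held 2 matches. The letters were in 12 of 33 mitosis genes with a promoter (36.4%) and in 7 of 19 that were called (36.8%). Of 29 replication genes, 3 held them (10.3%). The letters were in 14.1% of all tested genes with a promoter and in 5252 of all 32851 promoters.

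Among the other mitosis genes, Incenp, of the chromosomal passenger complex, was at 7.72 to 8.11 in the exposed mice and 7.17 to 7.43 in the sham controls (difference 0.64, standard error 0.12, adjusted p = 0.00032). Spc25, of the outer kinetochore, differed by 0.83 (adjusted p = 0.0015), Birc5, also of the passenger complex, by 0.91 (adjusted p = 0.018), and the spindle kinase Aurka by 0.54 (adjusted p = 0.023). Their groups were apart. Cenpi, which loads the centromere, was at 3.88 to 4.46 in the exposed mice and 3.03 to 3.43 in the sham controls (difference 0.99, adjusted p = 7.6e-05), near the bottom of the scale. Anln, a scaffold of the contractile ring, had overlapping groups at 6.85 to 7.59 against 5.99 to 6.93 (difference 0.75, adjusted p = 0.0035). Smc4, a condensin subunit, was the mitosis gene that fell (-0.56, adjusted p = 0.025), and its probe sets did not move together, with -0.17 and 0.22 in the others. The mean of the 39 genes was between 5.86 and 6.21 in the exposed mice and between 5.54 and 5.65 in the sham controls.

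Replication genes were called in part. Rrm2, the regulated subunit of ribonucleotide reductase, was at 7.08, 7.68, 7.68, 7.31 and 7.59 in the exposed mice and 6.17, 6.81, 6.26, 6.44 and 6.29 in the sham controls. Those groups did not overlap (adjusted p = 0.00052), and Rrm1, the partner subunit, differed by 0.37 (adjusted p = 0.0003). Cdc6 and Cdt1, which load the helicase on origins, differed by 0.76 and 0.64 (adjusted p = 0.005 and 0.00015). Of the helicase, Mcm6 differed by 0.57, Mcm7 by 0.46 and Mcm5 by 0.44 (adjusted p = 0.0065, 0.004 and 0.016). Rfc5, of the clamp loader, differed by 0.55 (standard error 0.09, adjusted p = 0.00012). Among those that did not pass were Pcna, the clamp itself, at 0.06 (adjusted p = 0.7), and the licensing genes Orc1 (-0.24), Mcm4 (0.07) and Mcm3 (0.19). Mcm10 (-0.09) and Tyms, of thymidylate synthesis, at -0.08, did not pass either. Tcf19, a chromatin protein that follows the cell cycle, had the smallest p of all rises among the 12 largest. It was at 7.90, 7.69, 7.90, 8.12 and 7.95 in the exposed mice and 6.51, 6.76, 6.59, 6.37 and 6.76 in the sham controls (difference 1.32, standard error 0.16, adjusted p = 7e-07). Several division genes have another probe set that stayed near or below 0. Among them are Cep55 (0.09), Tcf19 (-0.06), Top2a (-0.01 and 0.06), Incenp (-0.18, the lowest of its others) and Spc25 (0.01). Others are Rrm1 (-0.02), Cdt1 (0.1), Mcm5 (-0.03) and Aurka (-0.18). All of these probe sets lay low on the scale, with mean levels over all arrays between 2.89 (Rrm1) and 5.18 (Top2a). Brighter other probe sets gave 0.56 for Cdt1, 0.56 for Mcm5, 0.46 for Incenp and 0.1 for Rrm1.

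Of 32 genes of cell cycle control, 6 rose and 1 fell (21.9% called, against 12.5% of all genes). Cdk2, the kinase of S phase, differed by 0.30, and Rbl2, a repressor of resting cells, by 0.48 (adjusted p = 0.0048 and 0.0012). Ccnd1, the cyclin of early G1, fell, with 10.32 to 10.68 in the exposed mice and 10.78 to 11.08 in the sham controls (difference -0.44, adjusted p = 0.0093). The rise of Cdk2 was lost after centring, where 2 genes of the list rose and 2 fell.

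**Figure D2:**
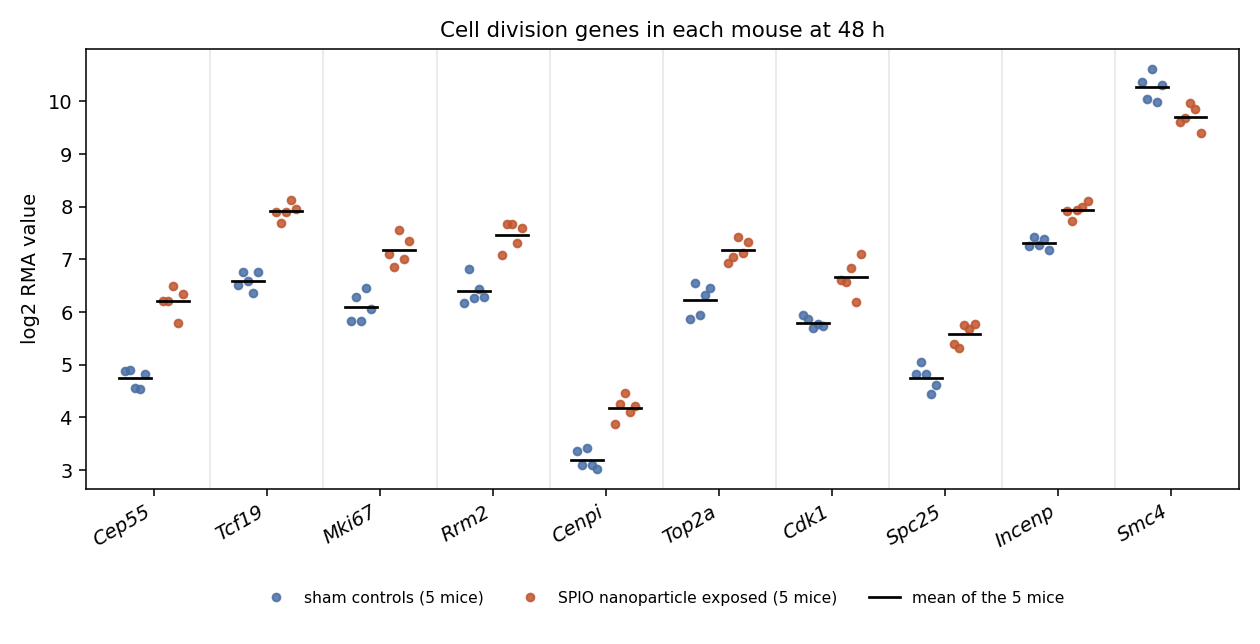
Log2 RMA value (vertical axis) of 10 cell division genes in each of 5 sham controls and 5 SPIO nanoparticle exposed mice at 48 h; points are mice and lines are means. The groups are apart for each gene, with exposed mice higher (Cep55 5.80 to 6.49 against 4.55 to 4.91) except for Smc4, where they are lower.

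Among the called genes whose groups were apart, leaving out predicted transcripts, the 4 largest rises were those of Wfdc21, Prok2, Saa3 and Wfdc17. Wfdc21, a small secreted protein of the whey acidic protein family, was at 9.04, 9.95, 9.74, 9.74 and 10.06 in the exposed mice and 6.84, 7.57, 7.19, 8.81 and 7.86 in the sham controls, a difference of 2.05 or 4.15-fold (standard error 0.39, adjusted p = 0.00046). Wfdc17, of the same family, differed by 1.53 (standard error 0.30, adjusted p = 0.00053). Saa3, the acute-phase serum amyloid A made by macrophages and epithelium, was at 10.52, 10.94, 11.39, 11.04 and 10.78 against 8.55, 8.33, 8.41, 9.74 and 10 in the sham controls (difference 1.93, standard error 0.44, adjusted p = 0.0024). In all 3 genes the groups were apart. Prok2, a chemokine-like protein of myeloid cells, was at 4.11, 6.11, 4.80, 5.72 and 5.97 in the exposed mice and 3.32, 3.18, 3.33, 3.83 and 3.34 in the sham controls. Its difference was 1.95 (standard error 0.37, adjusted p = 0.00036), from sham levels near the bottom of the scale. The other probe sets of Prok2 gave 0.24 and 0.13, at mean levels of 3.08 and 2.9 over all arrays. Sham mouse 4 was the highest sham control for Wfdc21, Wfdc17 and Prok2, and the differences were called without it as well.

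Sham mouse 4 also carried the most neutrophil transcripts of the sham controls. Of 18 measured neutrophil markers, 3 rose (16.7%, against 10.7% of all genes), none fell and 15 did not pass. Their median was 0.61. Without sham mouse 4, 7 rose, without sham arrays 2 and 5 none rose, and after centring 1 rose. The mean of the markers ran from 7.98 to 8.64 in the exposed mice and from 7.29 to 8.31 in the sham controls. Mmp8, the neutrophil collagenase, was at 9.88, 10.60, 10.51, 9.95 and 10.40 in the exposed mice and 7.43, 8.69, 7.99, 10.28 and 8.61 in the sham controls (difference 1.67, standard error 0.58, adjusted p = 0.048). Ngp, a granule protein of young neutrophils, differed by 1.49 (adjusted p = 0.017), and Lcn2, which binds bacterial iron carriers, by 0.68 (adjusted p = 0.045). The groups overlapped in all 3. The calprotectin genes S100a8 and S100a9 did not pass, at 0.93 and 0.98 (adjusted p = 0.1 and 0.092).

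Macrophage and lysosomal genes rose in part. Of 27 measured macrophage markers 5 rose (18.5%, against 10.7% of all genes), none fell and 22 did not pass. Their median was 0.23, and 3 rose after centring. The mean of the list was between 9.69 and 9.83 in the exposed mice and between 9.31 and 9.62 in the sham controls, with no overlap. Gpnmb, a lysosomal glycoprotein of loaded macrophages, was at 7.94, 8.13, 8.35, 8.27 and 8.11 in the exposed mice and 7.57, 7.34, 7.26, 7.24 and 7.61 in the sham controls (difference 0.76, standard error 0.13, adjusted p = 0.00015). Ctsk, a lysosomal protease, was at 8.49 to 8.79 against 7.35 to 8.08, and Ctsd, another, at 11.31 to 11.65 against 11.06 to 11.18 (adjusted p = 0.0024). Marco, a scavenger receptor that binds particles, differed by 0.77 and Itgax, an integrin of alveolar macrophages, by 0.45, close to the threshold (adjusted p = 0.039 and 0.049); both calls were lost after centring, and the other probe set of Marco gave -0.05. Krt79 and Cd68 did not pass, at 0.89 and 0.46 (adjusted p = 0.051 and 0.11).

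Of 26 lysosome genes, 6 rose and 1 fell (26.9% called, against 12.5% of all genes). After centring 3 rose and 1 fell. Mcoln1, the calcium channel of the lysosome, differed by 0.44 (adjusted p = 0.00092), and Psap, the precursor of the saposins, was at 12.42 to 12.46 in exposed mice and 12.09 to 12.20 in sham controls (adjusted p = 0.0039). Lipa, the acid lipase, was the one that fell (-0.54), and the mean of its probe sets gave 0.14.

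Of 33 measured chemokines 1 rose and 3 fell, or 12.1% in both directions together, against 12.5% of all genes. Over all genes 10.7% were called higher and 1.89% lower. Cxcl1, a neutrophil attractant, was at 7.62, 7.27, 8.18, 7.60 and 7.38 in the exposed mice and 7.02, 7.08, 6.85, 8.26 and 7.28 in the sham controls. The difference of 0.31 did not pass (standard error 0.29, adjusted p = 0.54). Cxcl2, Cxcl3 and Cxcl5, of the same group, had 0.03, -0.07 and 0.33, with standard errors of 0.30, 0.28 and 0.52, and each changed sign in some repeat. Ccl3, a macrophage inflammatory protein, came closest of the attractants at 0.58 (standard error 0.22, adjusted p = 0.073). Ccl9 and Ccl17, which draw monocytes and T cells, had 0.30 and -0.07, and Vnn1, a pantetheinase, 0.30 (adjusted p = 0.46, 0.85 and 0.37). A p above the threshold does not show equal levels: the standard error allows a difference of either sign for Cxcl1.

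Ccl6, a chemokine of resident macrophages, was the one that rose, at 12.82, 12.79, 12.92, 12.79 and 12.88 in the exposed mice and 12.28, 12.22, 12, 12.32 and 12.47 in the sham controls (difference 0.59, standard error 0.14, adjusted p = 0.0039). Cxcl15, or lungkine, made by lung epithelium, fell by 0.32 (adjusted p = 0.0099). Ccl2, a monocyte attractant, differed by -0.34 and Cxcl12, which holds progenitors and lymphocytes, by -0.50 (adjusted p = 0.02 and 0.029), both with overlapping groups and both lost when the 48 h arrays were fitted alone. Among 21 genes of chemokine receptors and chemotaxis 2 rose (9.52%, against 10.7% of all genes), none fell, and none was called after centring. Fpr2, for formyl peptides and serum amyloid A, rose by 0.70 with groups narrowly apart (adjusted p = 0.012). Its lowest exposed mouse was at 10.19 and its highest sham control at 10.18. Cmklr1, for chemerin, rose by 0.46 (adjusted p = 0.0097). Of 27 innate immune receptors 3 rose (11.1%, against 10.7% of all genes), namely Tlr1 by 0.72, Fcgr4 by 0.68 and Trem2 by 0.38 (other probe set -0.04), and none without sham arrays 2 and 5. Ace, on the list of 16 monocyte markers and also a gene of lung endothelium, was the one of that list called (0.51, adjusted p = 0.0035).

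Of 26 inflammatory cytokines and regulators 2 fell (7.69%, against 1.89% of all genes) and none rose. Il33, the alarmin of alveolar type 2 cells, was at 9.83, 9.38, 9.86, 9.50 and 9.26 in the exposed mice and 10.38, 10.49, 10.11, 10.60 and 10.54 in the sham controls (difference -0.86, standard error 0.19, adjusted p = 0.0024). Csf1, the growth factor of macrophages, differed by -0.50 (adjusted p = 0.0018), again with groups apart, but its other probe sets gave 0.02, 0.03 and -0.20. Of 26 interferon-stimulated genes 4 fell (15.4%, against 1.89% of all genes) and none rose. Stat2 and Irf9, which carry the signal of type I interferon together, differed by -0.52 and -0.36 (adjusted p = 0.01 and 0.015). Ifi204, of the Ifi200 cluster whose members share sequence, was at 3.44 to 4.08 in the exposed mice and 4.32 to 5.21 in the sham controls (difference -1.0, adjusted p = 0.00065); which member of the cluster its probe set reads is uncertain.

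**Figure D3:**
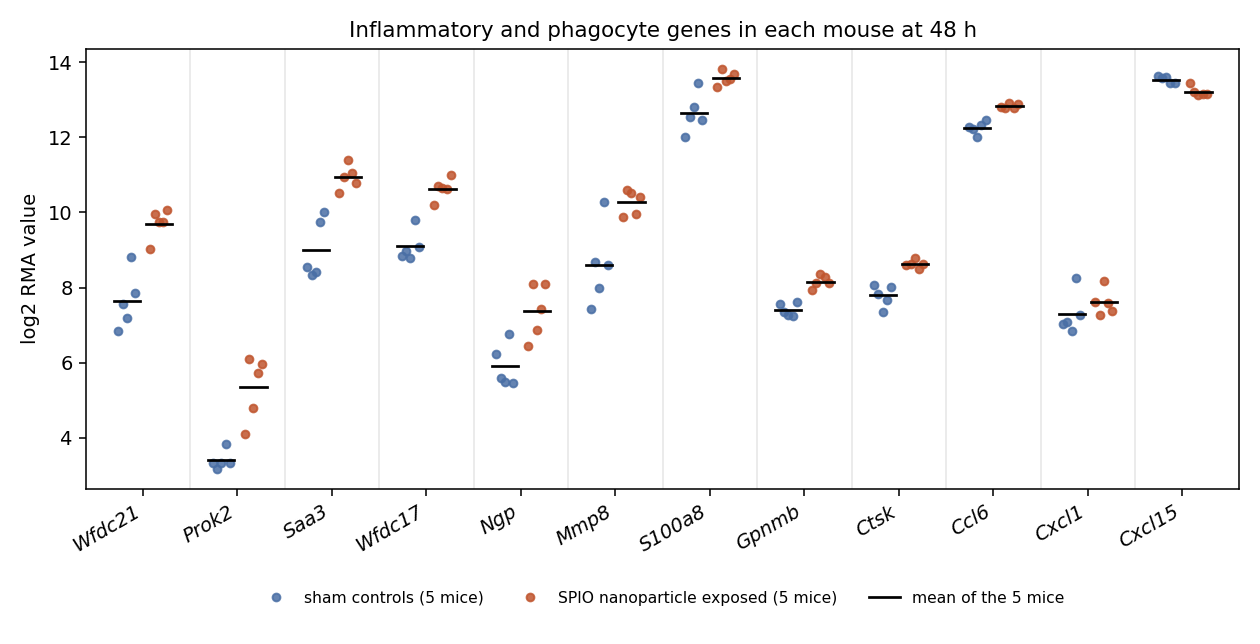
Log2 RMA value (vertical axis) of 12 inflammatory and phagocyte genes in each of 5 sham controls and 5 SPIO nanoparticle exposed mice at 48 h; points are mice and lines are means. The groups are apart for Wfdc21 (9.04 to 10.06 against 6.84 to 8.81) and overlap for Ngp, Mmp8, S100a8, Cxcl1 and Cxcl15.

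Iron handling genes moved in part. Of 28 measured genes of iron and heme handling 6 rose and 1 fell, against 2 and 1 after centring. Among all genes tested, 12.5% were called before centring, 10.7% higher and 1.89% lower. Lcn2, above, is one of the 6 iron and heme genes that rose. Slc11a1, the metal transporter of the phagosome, was at 7.34, 7.47, 7.51, 7.41 and 7.33 in the exposed mice and 6.56, 6.96, 6.67, 7.33 and 6.75 in the sham controls (difference 0.56, standard error 0.13, adjusted p = 0.003). Slc11a2, the transporter that moves iron out of the endosome, differed by 0.34, and Blvra, which reduces biliverdin, by 0.37 (adjusted p = 0.01 and 0.012). Cd163 and Lrp1, receptors for hemoglobin and heme complexes on macrophages, differed by 0.82 and 0.54 (adjusted p = 0.032 and 0.0058), with overlapping groups. Steap3, a ferrireductase, fell (-0.62, adjusted p = 0.022). Hmox1, the heme oxygenase that oxidant particles often induce, did not pass at -0.13 (standard error 0.18, adjusted p = 0.69).

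Of 24 genes of NRF2 and glutathione, 1 rose and 2 fell, and after centring none rose and 3 fell. Both directions together made 12.5%, as over all genes, of which 10.7% were called higher and 1.89% lower. Gclc, which makes the first bond of glutathione, was at 10.34, 10.04, 10.67, 10.22 and 10.07 in the exposed mice and 10.94, 11.32, 10.53, 11.28 and 10.86 in the sham controls (difference -0.72, standard error 0.18, adjusted p = 0.0058). The groups overlapped through sham mouse 3. Txn1, thioredoxin, rose by 0.16, and Nfe2l2, the NRF2 factor, fell by 0.23 (adjusted p = 0.019 and 0.039); the mean over each gene's probe sets had the opposite sign. Of the zinc transporters, Slc39a4 rose by 0.58 and Slc30a1 fell by 0.27 (-0.41 after centring).

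Of 19 alveolar type 2 genes 1 rose and 3 fell (21.1% called, against 12.5% of all genes), and after centring none rose and 5 fell: Muc1 was higher by 0.38, and Egfl6 (-0.57, adjusted p = 0.013) was lower beside Il33 and Cxcl15. Of 18 alveolar type 1 genes, Scnn1g, a subunit of the sodium channel that clears airspace fluid, was at 11.06 to 11.37 against 10.75 to 10.96 (difference 0.39, adjusted p = 0.00048), Hopx was higher by 0.20 (0.07 and not called after centring) and Sema3e lower (-0.36), so that 16.7% of the list was called. None of the 20 airway secretory or the 20 ciliated genes and none of the 31 fibroblast and matrix genes was called. Of 17 matrix proteases and inhibitors 3 rose (17.6%, against 10.7% of all genes). They were Mmp8, above, Adamts5, an aggrecanase, by 0.71, and Mmp14, a membrane collagenase, by 0.41 (adjusted p = 0.0015 and 0.011). Myh7, a cardiac myosin, rose by 0.94 (adjusted p = 0.00013), at 9.87 to 10.76 against 9.37 to 9.61. Myh6, the other cardiac myosin, ran from 4.01 to 11.73 in the exposed mice and from 7.0 to 11.87 in the sham controls, with exposed mouse 4 the lowest for Myh6 and the highest for Myh7.

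Of the remaining genes with the largest changes, Lrtm2 was at 7.32 to 7.75 against 6.00 to 6.63 (difference 1.21, adjusted p = 1.2e-05). Acaa1b, a thiolase of peroxisomes, differed by 1.2 (adjusted p = 0.0018), and Bbof1, of cilia, by 0.96 (adjusted p = 0.0014). On the lower side, Tcim was at 9.26 to 9.62 in the exposed mice and 10.32 to 10.58 in the sham controls (difference -0.92, standard error 0.15, adjusted p = 4e-05). Tmem252 differed by -1.08 (adjusted p = 0.01). Nipbl, the loader of cohesin, Far1, of ether lipid synthesis, and Rufy2 differed by -1.04, -0.97 and -0.98, but each has another probe set with a difference above 0 (0.18, 0.13 and 0.11).

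**Figure D4:**
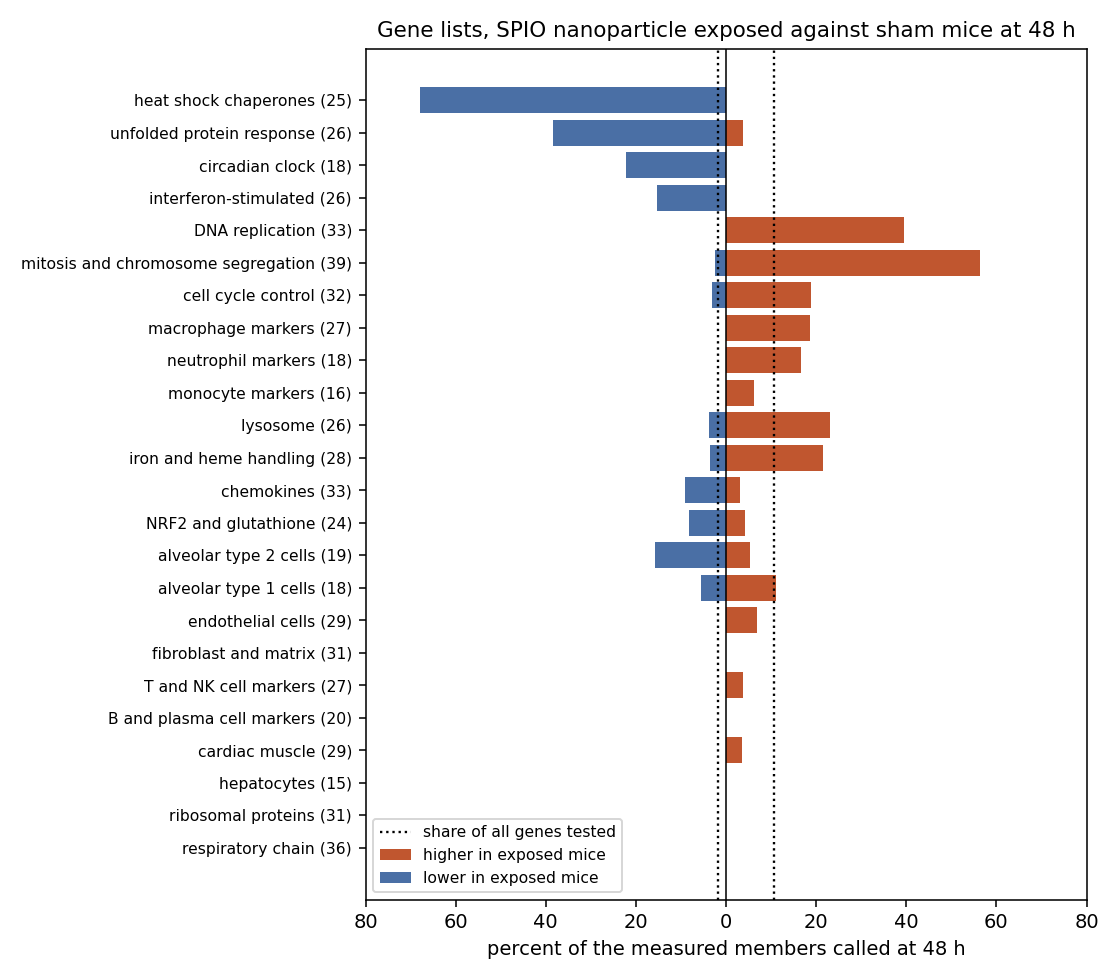
Percent of the measured members of 24 gene lists (number measured in brackets) called higher (right) or lower (left) in exposed than in sham mice at 48 h; dotted lines are the shares of all genes tested, 10.7% higher and 1.89% lower. Heat shock chaperones reach 68.0% lower; centring the arrays cuts the higher calls of the mitosis list from 22 to 9.

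The 48 h effects were set beside those of the neighbouring times, which used other mice. Of the 2283 genes called at 48 h, 1585 were also called at 24 h in the same direction, which is 69.4% of the 48 h genes and 36.4% of the 4356 genes called at 24 h; 1 was called in the opposite direction. At 96 h 99 of them were called in the same direction (4.34% of the 48 h genes and 38.7% of the 256). The difference of the effects itself passed for 0 of 18193 genes (0%) against 24 h and for 0 (0%) against 96 h in limma, where 1025 and 2349 genes had an unadjusted p under 0.05 and the lowest adjusted p was 0.18 and 0.21. These counts depended on the weighting of the arrays: with array weights 2 genes passed against 24 h and 1460 against 96 h, and 7 passed against 96 h without sham mouse 4.

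Named genes had their own courses within those limits. The effect on Prok2 was 0.51 at 24 h, 1.95 at 48 h and 0.48 at 96 h, and that on Wfdc21 was 1.15, 2.05 and 1.15. Mki67 had 1.16, 1.08 and 0.48, and Hspa1b -3.51, -3.30 and -1.38. Cxcl1 had effects of 1.87 at 0 h and 2.38 at 6 h, against 0.54 at 24 h and 0.31 at 48 h. Of the called genes, those with the smallest p for a difference from 24 h were led by Ifi202b (difference of effects -1.71, standard error 0.36), Sult5a1 (0.69, standard error 0.16), Rev3l (0.44, standard error 0.10) and Srm (-0.68, standard error 0.16). Against 96 h they were led by Liph (0.73, standard error 0.17), Moxd2 (-0.78, standard error 0.18), Fmn2 (0.98, standard error 0.24) and Elf5, an epithelial transcription factor (0.54, standard error 0.13). None of these 8 passed the adjustment. Rev3l and Fmn2 have another probe set with a 48 h difference below 0 (-0.30 and -0.09).

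Each arm at 48 h was also compared with the other 5 groups of its own arm, a comparison that shares the 48 h arrays with the one above. Those groups differed by more than time. Per the study's methods, the 168 h mice lived in metabolism cages on a liquid diet. Mice of the 96 h groups had their breathing measured during the exposure. Time and these conditions cannot be told apart. In the sham controls 975 genes differed (5.36%), 237 higher and 738 lower, and in the exposed mice 17 (0.0934%), with 1534 at an unadjusted p under 0.05. Leaving out 1 mouse moved these counts to between 153 and 2229 in the sham controls and between 1 and 20 in the exposed mice, with 1 left without exposed mouse 2, and 5 without exposed mouse 3 or 5. The count in the sham controls was 149 with the spread of the array as a covariate and 100 without sham arrays 2 and 5. For Hspa1b the sham controls were at 1.51 relative to the other sham groups (adjusted p = 0.024) and the mice given SPIO nanoparticles at -0.63 relative to theirs (adjusted p = 0.75). For Manf these values were 0.56 (adjusted p = 0.002) and -0.11, and for Hspe1 0.77 (adjusted p = 0.0084) and 0.14. For Tcf19 they were -0.68 (adjusted p = 0.0012) and 0.30 (adjusted p = 0.46), and for Mki67 -0.49 and 0.44, neither of which passed.

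For 3 of the 4 largest rises with groups apart the distance was in the exposed mice. Against the exposed mice of all remaining times Prok2 was at 1.56 in those of 48 h (adjusted p = 0.009) and at -0.23 in the sham controls (adjusted p = 0.64). Saa3 was at 1.79 and 0.64 and Wfdc17 at 1.29 and 0.11, with an adjusted p of 0.009 in the exposed mice for each. Cxcl3 was at -1.09 in the exposed mice (adjusted p = 0.011), where the earlier groups were higher. The differences between the arms in these distances are the 48 h effects set against the mean effect of the other times and were not tested.

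**Figure D5:**
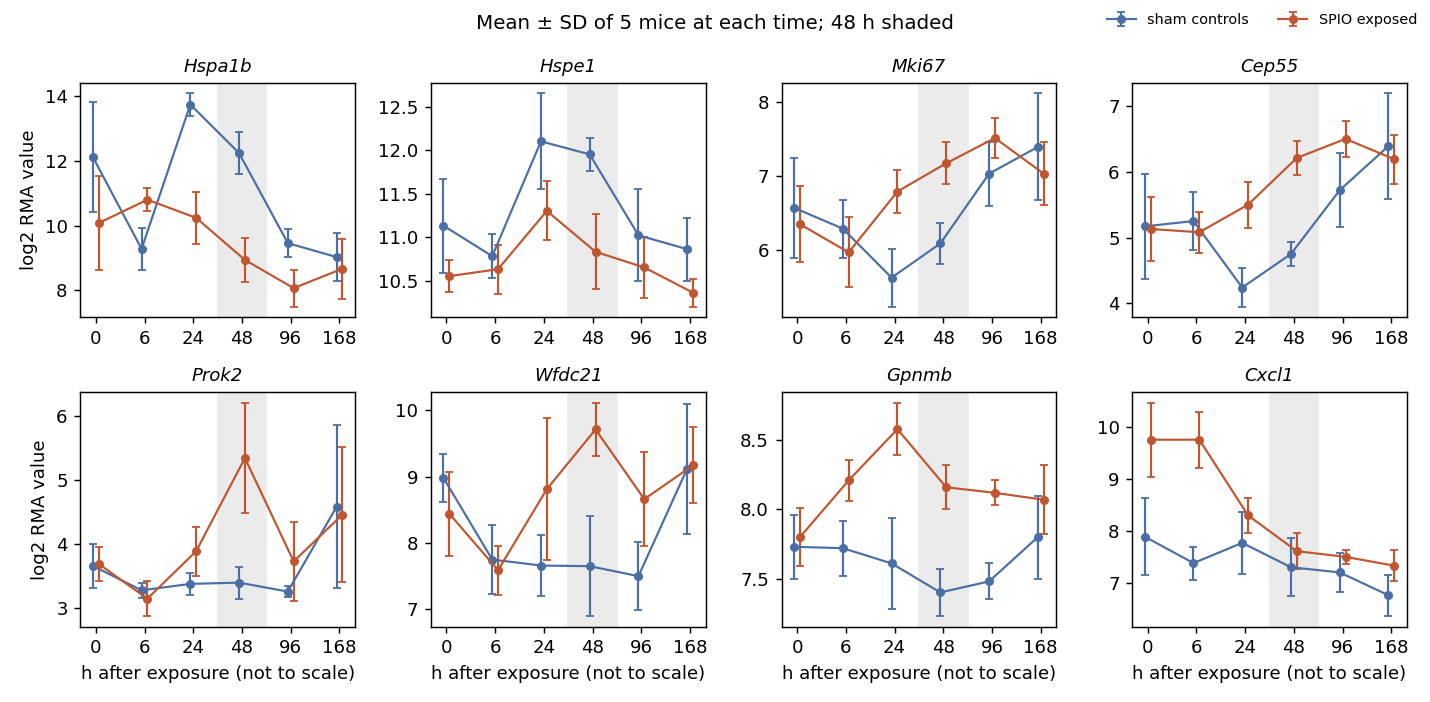
Mean log2 RMA value with SD of 5 mice (vertical axes) for 8 genes against time after exposure (horizontal axis, not to scale) in sham controls and SPIO nanoparticle exposed mice, with 48 h shaded. Hspe1 is highest in the sham controls at 24 and 48 h (12.10 and 11.95), and Prok2 is highest in the exposed mice at 48 h (5.34 ± 0.86).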

How the data were processed

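Total RNA of the right diaphragmatic lung lobe of 60 mice was measured on Affymetrix mouse genome arrays, 1 array for each mouse. The deposited values are log2 levels of 45101 probe sets, which the authors made by RMA (version not given in the sources used here); arrays carry no read depth, so the number of mice sets the precision. Probe sets were named from the platform annotation: 34945 carried 1 gene symbol, 932 several and 9160 none, and 64 were controls. Each of 18193 genes was represented by its brightest probe set on average across the 60 arrays. One linear model over the 12 groups, with 48 residual degrees of freedom, was fitted with limma 3.58.1 in R 4.3.3 and p-values were adjusted by Benjamini-Hochberg over all genes. The labels do not say whether mice of a group were exposed together, and the study describes each arm as exposed as a group. The p-values measure the spread between mice within groups, pooled over the 12 groups and moderated across genes. They do not measure a spread between exposures.

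The members and gene lists were chosen with earlier results of these data known. Named genes were the 12 largest called changes each way with groups apart, leaving out predicted transcripts, the 4 smallest p of each list, the 6 smallest p for a difference from 24 h and from 96 h, and the primer targets of the study; others were chosen after their values were seen. Of 1258 list entries in 51 lists, 1148 were measured. Alternatives changed the probe sets, normalization, moderation, filter, test and mice. The array's interquartile range as a covariate and the fit without sham arrays 2 and 5 were chosen after seeing the data. The model was tested on simulated data. Promoters came from a RefSeq table of 32851 promoters on GRCm38.p6. Where a gene had several, the promoter with the most matches was shown, and a match in any of them counted for the gene. Replicate numbers did not pair the mice.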

Additional observations from a re-analysis of the deposited data

Results flagged for a closer look

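Single mice stood away from the other 4 of their group in 11 of the 368 groups looked at for the named genes, by Dixon's ratio of the gap to the range at the 95% critical value; chance alone flags about 1 in 20 groups, which is more than were found here. In the sham controls, Prok2 was at 3.83 in mouse 4 (others 3.18 to 3.34), Nipbl at 9.50 in mouse 1 (others 9.82 to 9.93), Edem1 at 9.47 in mouse 5 (others 9.60 to 9.64), Cxcl3 at 3.83 in mouse 4 (others 2.72 to 3.01), Hopx at 13.30 in mouse 5 (others 13.09 to 13.14) and Ccna2 at 6.20 in mouse 2 (others 5.67 to 5.81). In the exposed mice, Tcim was at 9.26 in mouse 2 (others 9.55 to 9.62), Cxcl15 at 13.45 in mouse 1 (others 13.14 to 13.20), Cxcl3 at 3.60 in mouse 3 (others 2.73 to 2.89), Psme4 at 10.02 in mouse 5 (others 9.90 to 9.93) and Mcm5 at 7.80 in mouse 2 (others 7.95 to 7.99). Without that mouse, each of these genes other than Cxcl3 was still called in limma, in the same direction.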

How the results depend on the processing

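The 2283 genes called at 48 h became 1444 after a repeated quantile normalization, 1605 with centred arrays and 1021 with the 48 h arrays fitted alone. With array weights there were 4948. The test of the study's methods, an analysis of variance with unequal variances and Tukey's post hoc test, called 1257. A minimum of 1.5-fold and 2-fold left 253 and 25. The interquartile range as a covariate gave 1506, and the fit without sham arrays 2 and 5 gave 1338. Leaving out 1 mouse gave 1485 to 3021, lowest without exposed mouse 5 and highest without exposed mouse 2. With the replicate block 1826 were called; same-numbered mice had correlations of deviations from -0.316 to 0.04, so that the numbers do not pair them, and the block could not be estimated for the comparisons within an arm. Genes whose effect differed from 24 h numbered 1 with the mean of probe sets, 2 with array weights and 0 to 2 without 1 mouse; from 96 h, 1460 with array weights and 0 to 7 without 1 mouse (7 without sham mouse 4). The 975 genes of the sham arm became 502 (quantile), 3344 (array weights), 38 and 2 (fold minimums), 149 (interquartile range), 100 (without sham arrays 2 and 5) and 153 to 2229 without 1 mouse, lowest without sham mouse 5. The 17 of the exposed arm became 26 (centred), 26 (alone), 53 (array weights), 9 and 6 (fold minimums), 32 (interquartile range) and 1 to 20 without 1 mouse, lowest without exposed mouse 2. Signs turned for Cxcl2 (-0.10 centred, -0.16 to 0.31 without 1 mouse), Cxcl3 (0.05 with array weights, -0.22 to 0.12), Cxcl5 (-0.07 without sham arrays 2 and 5, -0.10 to 0.85), Myh6 (-1.52 to 0.68), Ager (-0.01 centred), Pcna (-0.07 centred, -0.02 with the interquartile range), and with the mean of probe sets for Txn1 (-0.09), Nfe2l2 (0.13), Lipa (0.14) and Sftpc (0.03). Uncalled genes near 0 also turned: Hspa4 (-0.09 to 0.02 without 1 mouse), Cdc37 (-0.01 centred), Orc1 (0.02 with the interquartile range), Mcm10 (0.03 with the mean of probe sets, 0.07 with the interquartile range) and Mcm4 (-0.13 with the mean of probe sets, -0.01 quantile, -0.06 centred, -0.02 with the interquartile range). The cause was not tested.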

Other observations

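Lists outside the report's groups held other called genes. Over all genes 10.7% were called higher and 1.89% lower. Of 18 clock genes 4 fell, among them Dbp (-1.11, adjusted p = 0.022), Ciart (-0.63, adjusted p = 0.0067), Nr1d1 (-0.89) and Bhlhe40 (-0.50). Of 6 cold-inducible and CLK kinase genes 2 rose, Cirbp by 1.06 and Srsf5 by 0.68 (adjusted p = 0.021 and 0.0035), the former not after centring. Of 30 splicing factors 4 rose and 3 fell, with Tra2b at -0.34 and Hnrnpd at 0.50. Of 23 immediate early genes Jund, Klf4 and Nr4a2 fell, Jund by 0.75 (adjusted p = 0.00084). Of 27 genes of hypoxia and glycolysis 6 rose, such as the phosphofructokinase Pfkl (0.55, adjusted p = 0.002), and 1 rose after centring. Of 21 genes of xenobiotic metabolism 5 rose, such as Fmo1 (0.46) and Cyp4b1 (0.31, adjusted p = 0.0024 for both), and none after centring. Of 37 proteasome genes 4 rose and 2 fell, with Psma7 at -0.33 (adjusted p = 0.00038). None of the 31 ribosomal protein and 36 respiratory chain genes was called in limma, although 10 of the ribosomal protein genes were lower after centring. Gata3, on the T and NK cell list, rose by 0.72 (adjusted p = 0.018).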
